A study of Mus musculus with 21 samples.

Results

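The Ms4a genes examined here were 8 members of the membrane-spanning 4A family that macrophages express: Ms4a4a, Ms4a4c, Ms4a6b, Ms4a6c, Ms4a6d, Ms4a7, Ms4a8a and Ms4a14. They were chosen from their measured levels in the same libraries, so their levels and differences are a description, and only genes outside the 8 are given with an adjusted p-value. The gene-level count table, with 34236 gene names, held 17 Ms4a names, and 7 of the 8 members were among them. Ms4a4a had no line there under its symbol or its older name and was read only from the second table, of log2(TPM + 1) values, which held all 8.

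RNA came from macrophages of C57BL/6J male mice, aged 24 weeks, whose right renal artery was narrowed with a cuff (renal artery stenosis, RAS) or that had a Sham operation. F4/80+CD64+ kidney cells were sorted by CD11b and CD11c, after T, B, NK, erythroid and granulocyte lineages were gated out, into CD11chiMϕ (CD11b hi CD11c hi; 3 Sham and 4 RAS libraries), CD11cloMϕ (CD11b hi CD11c lo-neg; 3 Sham and 4 RAS libraries) and kidney-resident macrophages, KRM (CD11b int CD11c int; 4 Sham and 3 RAS libraries). Each population is thus what a gate on surface proteins collected, and may hold more than 1 kind of cell. The 21 libraries held 6891177 to 18592427 counts, and levels are given as CPM, counts scaled to library size.

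The study's methods list fewer RAS libraries of the CD11b hi populations than the labels do, and the labels were followed. CD11chiMϕ RAS replicates 3 and 4 were the closest pair of libraries, with a chi-square per degree of freedom of 5.13 between their counts. The other pairs of that group had 94.3 to 128. The value of 5.13 is above sampling noise, but it cannot tell 2 preparations of 1 sample from 2 samples. Both were kept as labelled, so comparisons with CD11chiMϕ RAS may count 1 sample as 2. Some libraries stood apart, and values that rest on them are given with this in mind. The 6 macrophage markers Adgre1 (listed as Emr1), Fcgr1, Mertk, Csf1r, Cd68 and C1qa were detected in every group, at a summed 1937.8 to 10605.8 CPM. The 5 proximal tubule markers summed to 11488.4 CPM in CD11chiMϕ Sham replicate 3 and to 168 and 203 CPM in the other libraries of that group. Replicate 3 was also the highest Sham library in CD11cloMϕ, at 4158.3 CPM (86.6 and 94.6 CPM in the others), and in KRM, at 1597.6 CPM (at most 309 CPM in the others). T and NK cell markers summed to 324 CPM in KRM RAS replicate 1, where KRM Sham libraries held 2.61 to 3.73 CPM. Dendritic cell markers, mostly Cd209a, summed to 4752 and 5060 CPM in CD11chiMϕ RAS replicates 3 and 4 and to 58.2 to 68.6 CPM in KRM Sham. The values of KRM RAS replicate 1 in the log2 table did not follow its counts, and that column was left out. Why the 2 columns differ, and which of them holds the right values, could not be settled. The KRM RAS values from counts are therefore given with and without this library where it changes a call.

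MS4A proteins are small proteins that cross the membrane several times, and many of them sit beside immune receptors and tune their signals. The family is best known from CD20 (Ms4a1) of B cells and from the beta chain of the IgE receptor (Ms4a2) of mast cells. Macrophages express another set, among them Ms4a4a, which associates with the beta-glucan receptor dectin-1, and Ms4a7, a gene of mature tissue macrophages.

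All 19 annotated Ms4a genes lie in 1 cluster of 678.6 kb on mouse chromosome 19 (GRCm38, the build called mm10, chr19:10962293-11640851, GENCODE annotation). Ms4a8a (chr19:11067471-11081102), Ms4a14 (chr19:11301249-11314454) and Ms4a7 (chr19:11321039-11336146) are on the minus strand, and 6584 bases separate the last 2 of them. Ms4a4a (chr19:11375523-11392790), Ms4a4c (chr19:11404770-11427246), Ms4a6c (chr19:11469366-11482192) and Ms4a6b (chr19:11516512-11531256) follow on the plus strand, and Ms4a6d (chr19:11586604-11604849) is again on the minus strand.

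RefSeq promoter entries (GRCm38.p6, 250 bases before to 50 bases after the gene's start) were found for 7 of the 8 members. The promoters of Ms4a6c and Ms4a6b are shown because these genes share upstream sequence. Capitals mark exact shared runs of at least 15 bases, of 24 and 48 bases, 72 bases in all, out of the 250 upstream bases (chr19:11469118-11469367 for Ms4a6c and chr19:11518309-11518558 for Ms4a6b, both plus strand).
Ms4a6c: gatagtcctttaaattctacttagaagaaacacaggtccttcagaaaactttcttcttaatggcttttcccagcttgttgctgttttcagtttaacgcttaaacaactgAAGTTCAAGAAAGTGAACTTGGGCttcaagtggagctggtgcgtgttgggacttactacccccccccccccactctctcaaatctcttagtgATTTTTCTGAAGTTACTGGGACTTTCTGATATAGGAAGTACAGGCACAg
Ms4a6b: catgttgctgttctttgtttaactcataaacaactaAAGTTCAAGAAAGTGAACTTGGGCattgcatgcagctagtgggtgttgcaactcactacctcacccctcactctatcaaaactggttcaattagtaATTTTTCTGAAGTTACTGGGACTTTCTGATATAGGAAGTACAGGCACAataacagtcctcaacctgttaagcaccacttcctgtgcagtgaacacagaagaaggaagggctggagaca
Of 27 pairs of entries from different members, this was the 1 pair with such a run.

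The upstream sequences of Ms4a8a and Ms4a14 are shown because these genes had the lowest and among the highest levels in KRM relative to the other populations, and because a motif searched for was found only there among the members' entries. Capitals mark TGCTGAC, the core read by MAF factors, in Ms4a8a (minus strand, chr19:11081104-11081353) and TATAAA or its reverse complement in Ms4a14 (minus strand, chr19:11314455-11314704).
Ms4a8a: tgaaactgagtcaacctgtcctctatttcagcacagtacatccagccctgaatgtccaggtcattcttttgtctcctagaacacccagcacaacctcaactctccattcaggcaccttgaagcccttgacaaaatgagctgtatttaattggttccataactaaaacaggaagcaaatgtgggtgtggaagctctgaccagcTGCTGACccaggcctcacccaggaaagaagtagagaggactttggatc
Ms4a14: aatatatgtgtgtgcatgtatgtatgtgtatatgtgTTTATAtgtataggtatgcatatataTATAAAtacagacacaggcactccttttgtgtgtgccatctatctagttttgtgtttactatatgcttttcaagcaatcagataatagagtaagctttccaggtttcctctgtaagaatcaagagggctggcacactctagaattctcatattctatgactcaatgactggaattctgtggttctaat
Searched on both strands over the same 300 bases, TGCTGAC was in 4.67% and TATAAA in 13.6% of 32851 promoters. GAGGAAG (PU.1), TTGCNNAA (C/EBP) and the interferon response core (GAAA, any 2 bases, GAAA) were in 13.6%, 10.8% and 3.44% of all promoters and in none of the members' entries. A match is a string of letters and not a measured binding site.

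Ms4a7 and Ms4a14 were highest in KRM, Ms4a8a, Ms4a4a and Ms4a4c were highest in CD11cloMϕ, and Ms4a6b, Ms4a6c and Ms4a6d were found in all populations with their highest means in CD11cloMϕ. In these bulk samples, fewer cells with a transcript and less of it per cell cannot be told apart.

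**Figure D1:**
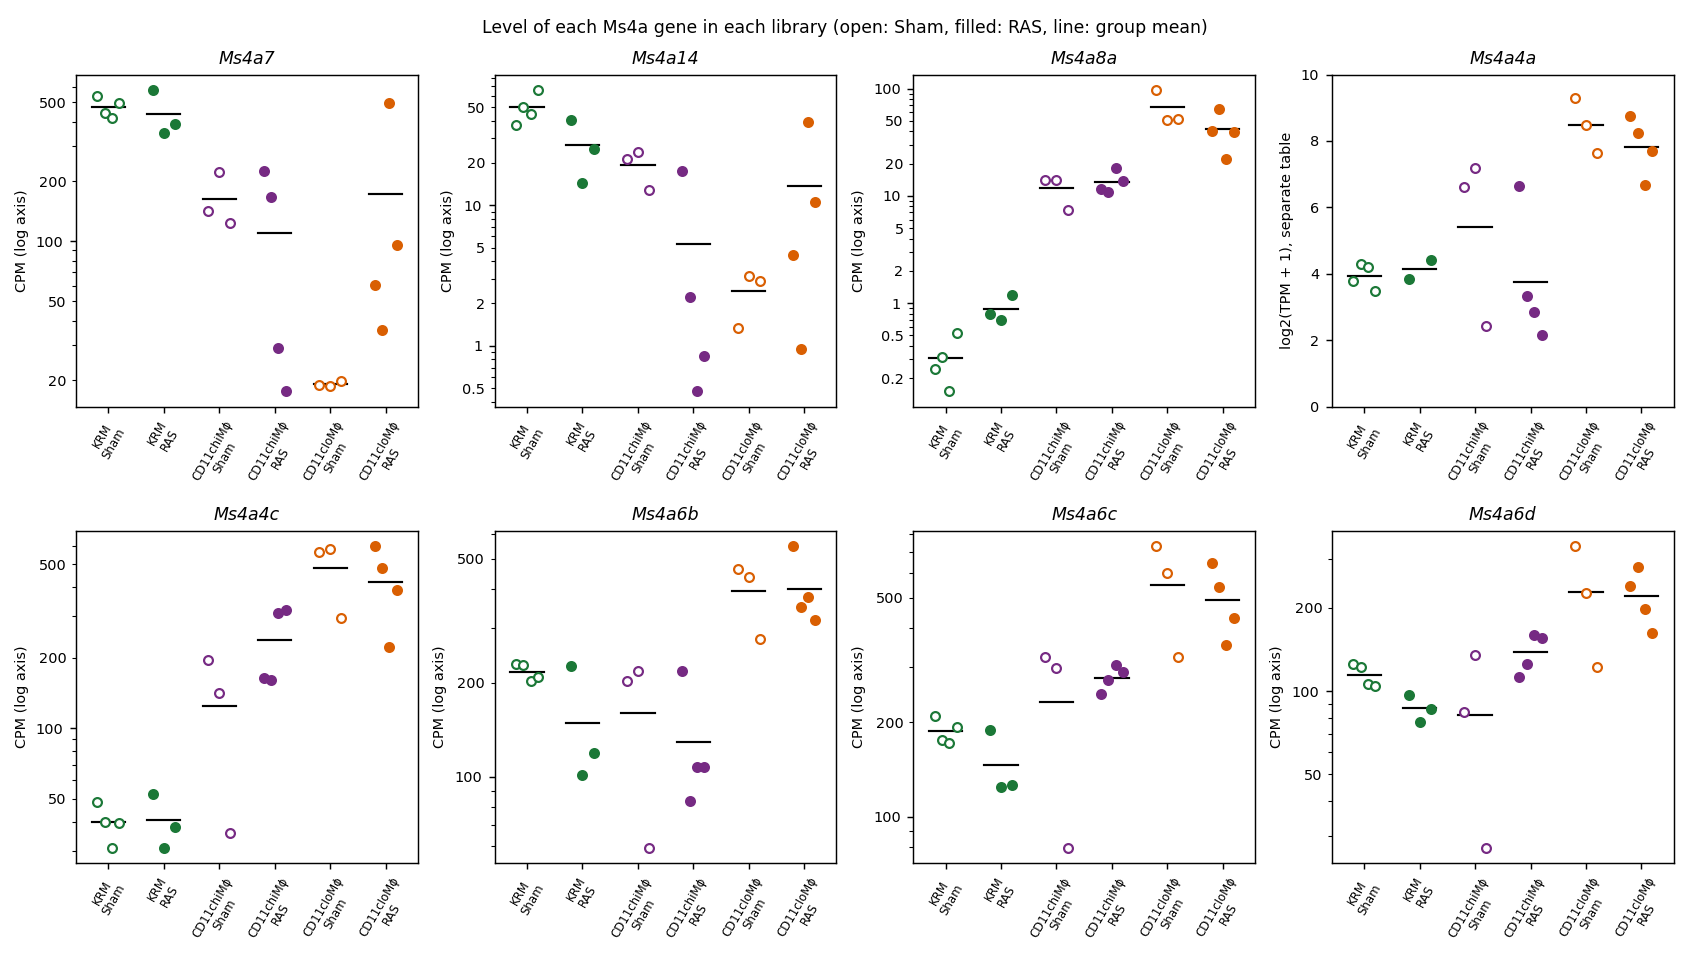
Level of each Ms4a gene in each library, with 1 point per library (open for Sham, filled for RAS) and a line at the group mean; the vertical axes are CPM on a log axis, except for Ms4a4a, in log2(TPM + 1) from the second table without KRM RAS replicate 1. Ms4a7 sits at 349 to 579 CPM in KRM and Ms4a8a at 0.15 to 1.19 CPM there, against 21.9 to 97.9 CPM in CD11cloMϕ.

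Ms4a7 was at 537, 444, 416 and 495 CPM in the 4 KRM Sham libraries and at 579, 349 and 388 CPM in the 3 KRM RAS libraries. CD11chiMϕ held 142, 224 and 123 CPM in Sham and 226, 167, 29.0 and 17.6 CPM in RAS. CD11cloMϕ held 19, 18.7 and 19.8 CPM in Sham and 60.4, 36.0, 496 and 95.8 CPM in RAS. Every KRM library was therefore above every CD11chiMϕ library, and 1 CD11cloMϕ RAS library reached the KRM range. By group mean the order was KRM Sham, KRM RAS, CD11cloMϕ RAS, CD11chiMϕ Sham, CD11chiMϕ RAS and CD11cloMϕ Sham, and every pair of neighbours in that order overlapped.

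Ms4a14, the gene next to Ms4a7, whose function is little known, was at 37.4, 49.9, 44.8 and 66.5 CPM in KRM Sham and at 40.4, 14.3 and 25.2 CPM in KRM RAS. CD11chiMϕ held 21.5, 23.8 and 12.8 CPM in Sham and 17.6, 2.22, 0.473 and 0.85 CPM in RAS. CD11cloMϕ held 1.34, 3.13 and 2.87 CPM in Sham and 4.43, 0.954, 39.2 and 10.6 CPM in RAS. The libraries low in Ms4a7 were mostly low in Ms4a14 too. An exception was CD11chiMϕ RAS replicate 2, at 167 CPM of Ms4a7 and 2.22 CPM of Ms4a14.

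Ms4a8a, reported in alternatively activated macrophages, separated the populations in all 21 libraries. It was at 97.9, 51.1 and 51.9 CPM in CD11cloMϕ Sham and at 40.4, 64.4, 21.9 and 39.8 CPM in CD11cloMϕ RAS. CD11chiMϕ held 14.2, 14.1 and 7.41 CPM in Sham and 11.5, 10.9, 18.2 and 13.8 CPM in RAS. KRM held 0.241, 0.317, 0.15 and 0.523 CPM in Sham and 0.786, 0.695 and 1.19 CPM in RAS. Every CD11cloMϕ library was above every CD11chiMϕ library, and every CD11chiMϕ library was above every KRM library. The KRM values rest on few reads, 2, 3, 3 and 5 counts in Sham and 8, 8 and 13 in RAS.

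Ms4a4c was at 567, 584 and 294 CPM in CD11cloMϕ Sham and at 599, 480, 221 and 388 CPM in CD11cloMϕ RAS. CD11chiMϕ held 196, 141 and 35.9 CPM in Sham and 163, 160, 311 and 320 CPM in RAS. KRM held 48.6, 39.7, 30.9 and 39.4 CPM in Sham and 52.6, 30.9 and 37.9 CPM in RAS. KRM was thus uniformly low, and the only other library in its range was CD11chiMϕ Sham replicate 3, the library with most proximal tubule RNA. In RAS, the CD11chiMϕ libraries with least Ms4a7 (replicates 3 and 4) had the most Ms4a4c.

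Ms4a4a, from the log2(TPM + 1) table, was at 9.29, 8.47 and 7.64 in CD11cloMϕ Sham and at 8.75, 8.23, 6.66 and 7.69 in CD11cloMϕ RAS. CD11chiMϕ held 6.60, 7.19 and 2.44 in Sham and 6.63, 3.34, 2.84 and 2.17 in RAS. KRM held 3.79, 4.28, 4.19 and 3.49 in Sham and 3.85 and 4.41 in RAS replicates 2 and 3. The KRM values lay close together and below every CD11cloMϕ value, while CD11chiMϕ spanned a range from below KRM to within that of CD11cloMϕ.

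Ms4a6c was the most abundant of the 3 Ms4a6 genes, which are transcribed in most myeloid cells, per transcript length in each group. It was at 731, 598 and 322 CPM in CD11cloMϕ Sham and at 647, 542, 352 and 431 CPM in CD11cloMϕ RAS. CD11chiMϕ held 322, 297 and 79.5 CPM in Sham and 246, 272, 304 and 289 CPM in RAS. KRM held 210, 175, 172 and 193 CPM in Sham and 189, 124 and 126 CPM in RAS, so that all 7 KRM libraries were below all 7 CD11cloMϕ libraries.

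Ms4a6b was at 465, 438 and 276 CPM in CD11cloMϕ Sham and at 550, 350, 376 and 319 CPM in CD11cloMϕ RAS, above the highest value of either other population. CD11chiMϕ held 202, 219 and 59.1 CPM in Sham and 219, 83.4, 107 and 107 CPM in RAS. KRM held 230, 228, 202 and 209 CPM in Sham and 227, 101 and 119 CPM in RAS. The CD11chiMϕ and KRM ranges overlapped throughout.

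Ms4a6d, whose product has been linked with VSIG4 in the control of the NLRP3 inflammasome, was at 335, 227 and 122 CPM in CD11cloMϕ Sham and at 240, 282, 198 and 162 CPM in CD11cloMϕ RAS. CD11chiMϕ held 83.7, 135 and 27.1 CPM in Sham and 112, 125, 160 and 156 CPM in RAS. KRM held 125, 122, 106 and 104 CPM in Sham and 96.7, 77.1 and 86.4 CPM in RAS. KRM varied less between its libraries than the other populations, as it did for Ms4a6b and Ms4a6c in Sham.

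Reads of near-identical members may have been divided between them. Of the distinct 31-base words in their annotated transcripts, 15.6% of those of Ms4a4c, 14.2% of Ms4a6c, 7.71% of Ms4a6b and 5.1% of Ms4a6d were also in another Ms4a gene, and 0.0% of those of Ms4a4a, Ms4a7, Ms4a8a and Ms4a14. The deposited counts of Ms4a4c were not whole numbers in 21 of 21 libraries, those of Ms4a6b in 19, of Ms4a6c in 17 and of Ms4a6d in 5, while those of Ms4a7, Ms4a8a and Ms4a14 were whole in all. The values of the Ms4a6 genes and Ms4a4c are uncertain to that extent. Ms4a4c, Ms4a6c and Ms4a6b also overlap an annotated pseudogene or noncoding gene on the other strand, whose reads the counting may not separate.

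Levels of different genes can be compared only per transcript length, in the second table. In KRM Sham, Ms4a7 led with a mean log2(TPM + 1) of 9.63 ± 0.0656 (SD, n = 4), followed by Ms4a6c at 7.93 ± 0.0772 (SD, n = 4) and Ms4a6b at 7.78 ± 0.0855 (SD, n = 4), and Ms4a8a was last at 0.716 ± 0.332 (SD, n = 4). In CD11cloMϕ Sham, Ms4a6c led at 9.22 ± 0.602 (SD, n = 3), followed by Ms4a4c at 8.82 ± 0.49 (SD, n = 3) and Ms4a4a at 8.47 ± 0.821 (SD, n = 3), and Ms4a7 was seventh at 4.71 ± 0.0419 (SD, n = 3). CD11chiMϕ Sham was led by Ms4a6c and Ms4a7, whose means of 7.98 ± 1.15 and 7.82 ± 0.578 (SD, n = 3) differed by less than their spread.

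As a share of the summed TPM of all 8 genes, Ms4a7 made up 51.1% to 54.5% in KRM Sham and 58.1% and 58.3% in KRM RAS. In CD11cloMϕ Sham it made up 0.841% to 1.88%, and in CD11cloMϕ RAS 2.31% to 33.6%. Ms4a4c made up 18.4% to 24.4% in CD11cloMϕ Sham and 2.44% to 3.44% in KRM Sham, and Ms4a4a 14.7% to 21.6% and 0.669% to 1.24%. Ms4a6d, by contrast, held a like share in both, 10% to 12.2% in CD11cloMϕ Sham and 9.15% to 11.3% in KRM Sham.

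**Figure D2:**
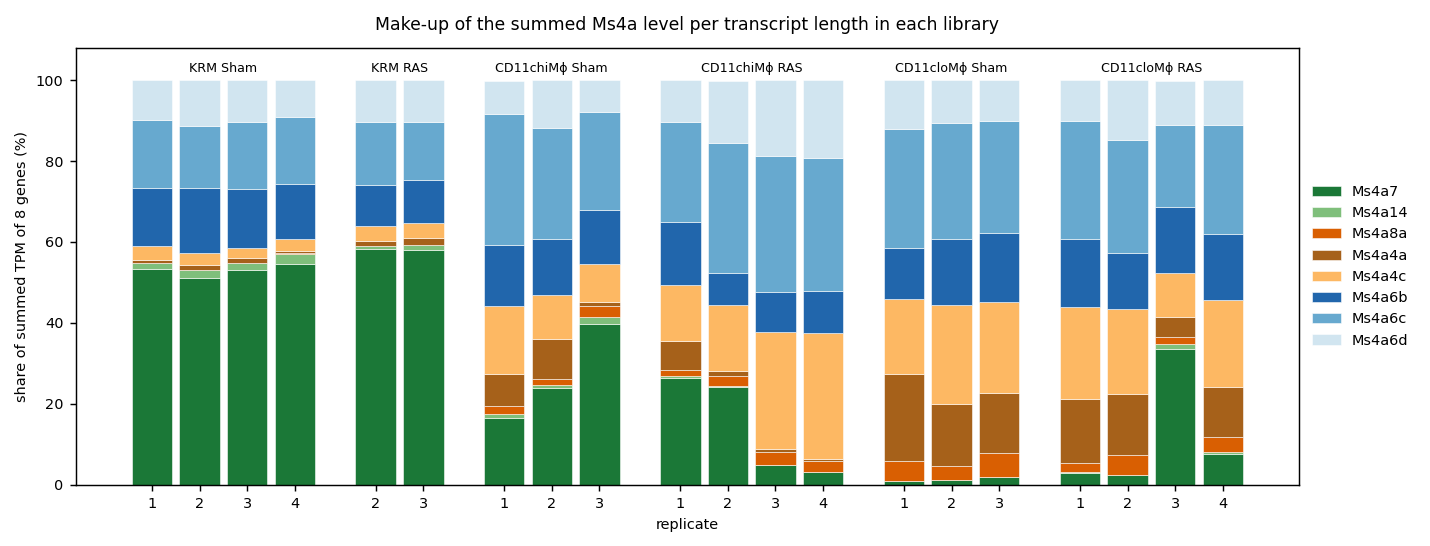
Share of each gene in the summed TPM of the 8 Ms4a genes, in percent, with 1 bar per library grouped by population and operation; KRM RAS replicate 1 is left out. Ms4a7 (dark green) takes 51.1% to 58.3% of each KRM bar and 0.841% to 1.88% of each CD11cloMϕ Sham bar, and the third CD11cloMϕ RAS bar stands out at 33.6%.

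The first comparison asked how KRM differed from the CD11b hi macrophages in Sham kidneys. Against CD11cloMϕ, Ms4a7 was higher in KRM by 4.60 ± 0.142 (log2 fold change ± SE) and Ms4a14 by 4.32 ± 0.342. In the same comparison the difference was -7.84 ± 0.428 for Ms4a8a, -3.64 ± 0.277 for Ms4a4c, -1.59 ± 0.261 for Ms4a6c, -1.03 ± 0.3 for Ms4a6d and -0.88 ± 0.192 for Ms4a6b. All 7 members measured as counts passed the adjusted threshold of 0.05 of edgeR's quasi-likelihood test, where 41.8% of the 12399 genes tested did. Of them, Ms4a8a passed the filter on low counts only through CD11cloMϕ, where it is high. The size of its difference and its call therefore rest on few KRM counts. Only Ms4a6d had overlapping groups, through CD11cloMϕ Sham replicate 3 (122 CPM), the library with proximal tubule RNA. Ms4a6d was not called without CD11cloMϕ Sham replicate 1 or 2 or KRM Sham replicate 2, 3 or 4. How many of all genes had groups without overlap was not counted. Overlap, here and below, therefore only describes the members' libraries. The median difference was -1.03 over the members and -0.04 over all genes. In the log2 table, Ms4a4a was lower in KRM by a difference of -4.52 ± 0.392. The ratio of pooled Ms4a8a counts was 248, with an exact 95% interval from 144 to 466 that covers counting error only. Monocyte markers summed to 4044.6 to 12915.3 CPM in CD11cloMϕ Sham and to 560 to 852 CPM in KRM Sham, and neutrophil markers to 773 to 2221.9 CPM and 5.75 to 8.78 CPM. Of the 6 neutrophil markers, Retnlg was at 568 to 1265.5 CPM in CD11cloMϕ Sham, Mmp8 at 87.5 to 607 CPM, S100a8 at 42.6 to 224 CPM, S100a9 at 40.5 to 241 CPM and Cxcr2 at 7.07 to 22.2 CPM, each at most at 3.61 CPM in KRM Sham, while Ly6g was at 0.413, 0 and 0 CPM and at 0 in KRM Sham. Their part in the members' differences was not tested.

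Against CD11chiMϕ in Sham, KRM held more Ms4a7, by 1.49 ± 0.237, and more Ms4a14, by 1.31 ± 0.268, with no overlap between the groups. The difference in Ms4a8a was -5.31 ± 0.481, a ratio of pooled counts of 44.5 (exact 95% interval 25.6 to 84.4, for counting error only). Ms4a8a passed the filter on low counts only through CD11chiMϕ, where it is higher, so its call rests on few KRM counts. The difference was -1.68 ± 0.476 for Ms4a4c, 0.41 ± 0.389 for Ms4a6b, -0.34 ± 0.41 for Ms4a6c and 0.45 ± 0.44 for Ms4a6d, with overlapping groups. The 3 called members of 7 (Ms4a7, Ms4a14 and Ms4a8a) stood beside 5.12% of 12404 genes, and the median difference was 0.41 over the members and -0.07 over all genes. With the replicate number as a block, which in Sham pairs the samples, 1 member was called, Ms4a8a with the limit just given. Ms4a7 and Ms4a14 were also both lost without CD11chiMϕ Sham replicate 1 or KRM Sham replicate 1, 2 or 4, and Ms4a14 alone without KRM Sham replicate 3. Without CD11chiMϕ Sham replicate 3, 5 were called, Ms4a4c and Ms4a6c joining at -2.11 ± 0.19 and -0.74 ± 0.125, where 13.6% of all genes were called. Dendritic cell markers summed to 325 to 1718.7 CPM in CD11chiMϕ Sham and to 58.2 to 68.6 CPM in KRM Sham. Monocyte markers overlapped, at 387 to 2235 CPM and 560 to 852 CPM. The part of these cell types in the members' differences was not tested.

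Between the CD11b hi populations, in Sham, CD11chiMϕ held more Ms4a7 than CD11cloMϕ, by 3.16 ± 0.262, and more Ms4a14, by 3.04 ± 0.443. The difference in Ms4a8a was -2.43 ± 0.368. The Ms4a6 genes and Ms4a4c differed by -1.20 to -1.92 with standard errors of 0.476 to 0.597, and Ms4a4a in the log2 table by -3.05 ± 1.30. The 3 called members stood beside 1.52% of 12105 genes (median difference -1.26 over the members and 0.13 over all genes), and with the replicate block 4 were called, Ms4a4c being added at -2.12. Leaving out any 1 library other than CD11chiMϕ Sham replicate 3 left no member called.

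**Figure D3:**
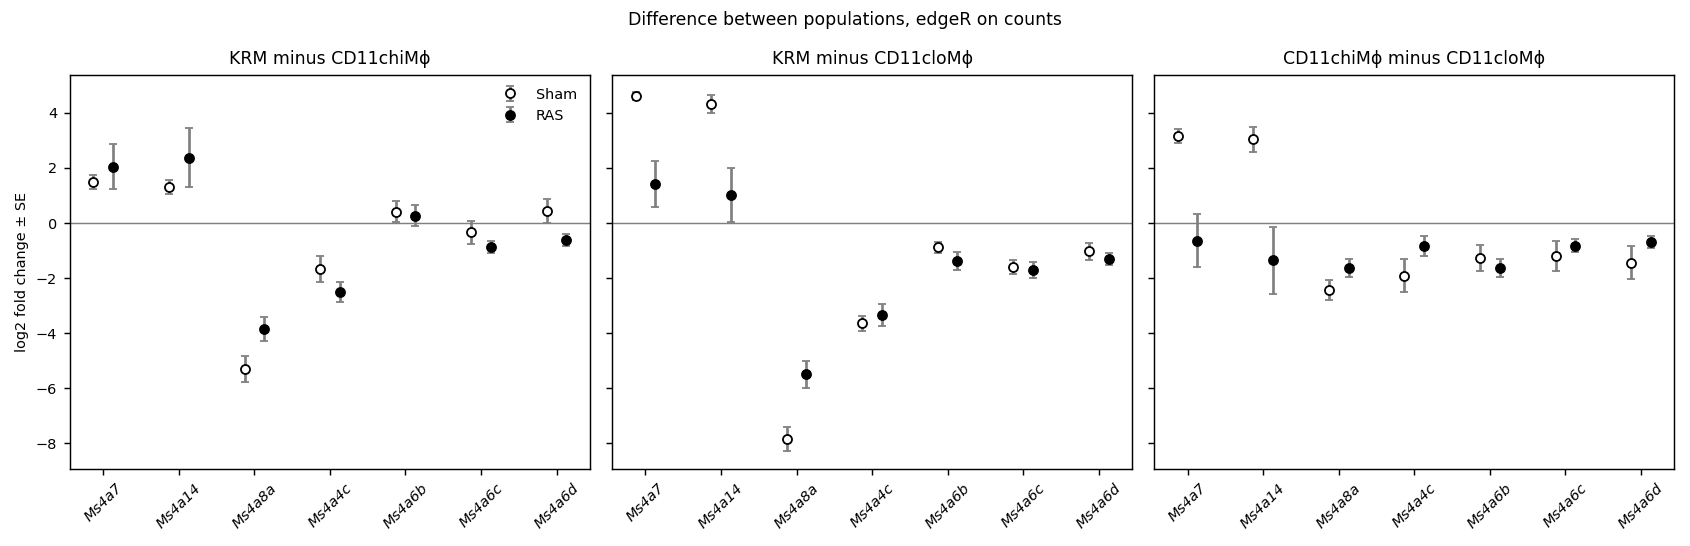
Log2 fold change (points) with its standard error (bars) between populations for the 7 Ms4a genes with counts, in Sham (open) and RAS (filled); the panels show KRM minus CD11chiMϕ, KRM minus CD11cloMϕ and CD11chiMϕ minus CD11cloMϕ. The Ms4a7 difference between KRM and CD11cloMϕ is 4.60 ± 0.142 in Sham and 1.42 ± 0.828 in RAS, while that of Ms4a4c is -3.64 ± 0.277 and -3.35 ± 0.4.

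The same populations were compared in RAS kidneys. KRM minus CD11cloMϕ was -5.49 ± 0.494 for Ms4a8a, -3.35 ± 0.4 for Ms4a4c, -1.71 ± 0.279 for Ms4a6c, -1.38 ± 0.327 for Ms4a6b and -1.30 ± 0.222 for Ms4a6d, with no overlap for any of these 5. They were the called members, beside 9.17% of 13179 genes, and the median difference was -1.38 over the members and 0.06 over all genes. Of them, Ms4a8a passed the filter on low counts only through CD11cloMϕ, where it is high. For Ms4a7 and Ms4a14 the differences were 1.42 ± 0.828 and 1.01 ± 0.984, and the groups overlapped. Without CD11cloMϕ RAS replicate 3 these became 2.83 ± 0.415 and 2.37, and Ms4a7 was then called while Ms4a6b was not, where 16.2% of all genes were called. Leaving out KRM RAS replicate 2 or 3 left no member called, and without CD11cloMϕ RAS replicate 2 or 4 there were 1 and 2. Monocyte markers summed to 2812.4 to 6665.2 CPM in CD11cloMϕ RAS and to 565 to 988 CPM in KRM RAS. Neutrophil markers summed to 1596.1 to 2505.3 CPM and 0.642 to 12.1 CPM, with Ly6g at most at 0.452 CPM in CD11cloMϕ RAS. Their part in these differences was not tested.

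Against CD11chiMϕ in RAS, KRM held less Ms4a8a, with a difference of -3.85 ± 0.42, and less Ms4a4c, at -2.50 ± 0.359, and these 2 were called beside 9.23% of 13226 genes, with a median difference of -0.62 over the members and 0.03 over all genes. Ms4a8a passed the filter on low counts only through CD11chiMϕ, where it is higher. Ms4a7 was 2.04 ± 0.812 higher in KRM with no overlap, and Ms4a14 2.37 ± 1.08 higher with overlap. Leaving out KRM RAS replicate 2 left no member called, leaving out CD11chiMϕ RAS replicate 3 or 4 or KRM RAS replicate 3 left Ms4a8a, and leaving out CD11chiMϕ RAS replicate 1 gave 4, where 17.6% of all genes were called. Without KRM RAS replicate 1, Ms4a6c joined the 2 at -1.11 ± 0.242, where 19.6% of all genes were called. CD11chiMϕ against CD11cloMϕ had 2 called members, beside 8.27% of 12305 genes (median difference -0.83 over the members and 0.01 over all genes). These were Ms4a6b, lower in CD11chiMϕ by a difference of -1.63 ± 0.33, and Ms4a8a, at -1.62 ± 0.326, and no member was called without CD11chiMϕ RAS replicate 4 or CD11cloMϕ RAS replicate 2 or 4. Ms4a4a differed by -4.09 ± 0.912 in the log2 table, with every CD11cloMϕ library above every CD11chiMϕ library.

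The effect of the stenosis itself was asked within each population. No member was called between RAS and Sham in CD11chiMϕ (0.0% of 12739 genes), CD11cloMϕ (0.0% of 12301 genes) or KRM (9.77% of 12852 genes). By edgeR, 0, 1 and 2 members had an unadjusted p under 0.05 in CD11chiMϕ, CD11cloMϕ and KRM, where 1247, 1102 and 4494 of all genes did. DESeq2 called no member in any of the 3 and 188, 107 and 3166 of all genes.

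In CD11cloMϕ the RAS libraries all held more Ms4a7 than the Sham libraries, a difference of 3.15 ± 0.928 that fell to 1.75 ± 0.349 without RAS replicate 3. The difference in Ms4a14 was 2.47 ± 1.11, and 1.12 ± 0.843 without that library. The other 5 members with counts differed by -0.69 to 0.02. The RAS libraries were all above the Sham libraries in macrophage markers too, at 4350.4 to 9060.3 CPM against 3734.7 to 4167.5 CPM, and in T and NK cell markers, at 14.2 to 35.7 CPM against 4.64 to 9.62 CPM. RAS replicate 3 held most macrophage marker RNA of its group, 9060.3 CPM where the median was 4822.2 CPM, and least monocyte marker RNA, 2812 CPM where the group's median was 5471.0 CPM. The part of these in the Ms4a7 level was not tested.

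In CD11chiMϕ the differences between RAS and Sham were -1.90 ± 1.1 for Ms4a14, 0.87 ± 0.544 for Ms4a4c, 0.69 ± 0.461 for Ms4a6d and -0.62 ± 0.824 for Ms4a7, and all groups overlapped. For Ms4a14 the overlap came from RAS replicate 1 alone, as RAS replicates 2 to 4 held 0.473 to 2.22 CPM and Sham held 12.8 to 23.8 CPM. The RAS libraries fell apart among themselves. Replicate 1 held 17.6 CPM of Ms4a14 and 693 CPM of Cd209a, and replicates 3 and 4 held 0.473 and 0.85 CPM of Ms4a14 with 4033.3 and 4261.4 CPM of Cd209a. These levels did not always run opposite, as RAS replicate 2 and Sham replicate 1 held 1436.7 and 1437.2 CPM of Cd209a with 2.22 and 21.5 CPM of Ms4a14. Of the other dendritic cell markers, Ccr7 was at 42.1, 230, 404 and 430 CPM in RAS replicates 1 to 4, Zbtb46 at 73.8, 62.2, 127 and 167 CPM and Flt3 at 95.2, 125, 181 and 193 CPM, so that these were highest in replicates 3 and 4 as Cd209a was. Xcr1 was lowest there, at 28.3 and 36.6 CPM in RAS replicates 1 and 2 and at 6.86 and 8.74 CPM in replicates 3 and 4. T and NK cell markers summed to 231, 139, 71.4 and 85.5 CPM in the RAS libraries and to 6.16 to 31.1 CPM in Sham. Fcgr1, which encodes the CD64 used in the sort, was at 117 CPM in replicate 1 and at 20.4 and 12.4 CPM in replicates 3 and 4. The part of dendritic, T and NK cell transcripts in these levels was not tested.

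**Figure D4:**
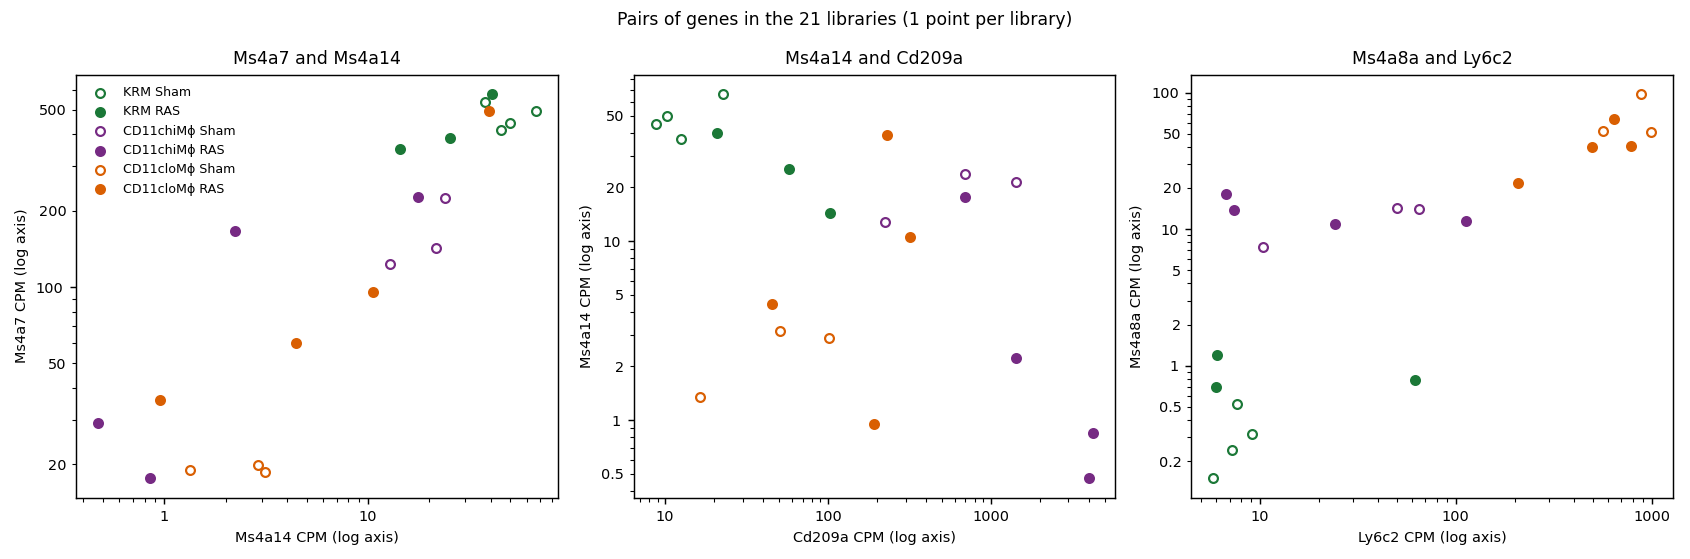
Pairs of genes in the 21 libraries, with 1 point per library (open for Sham, filled for RAS) and both axes in CPM on log scales: Ms4a7 against Ms4a14, Ms4a14 against Cd209a, and Ms4a8a against Ly6c2, a monocyte gene. CD11cloMϕ RAS replicate 3 lies among the KRM points in the first panel, at 496 CPM of Ms4a7 and 39.2 CPM of Ms4a14, and CD11chiMϕ RAS replicates 3 and 4 lie at the lower right of the second.

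In KRM, Ms4a7 differed between RAS and Sham by -0.03 ± 0.186 and Ms4a4c by 0.11 ± 0.206. Ms4a14 differed by -0.82 ± 0.339, Ms4a6b by -0.47 ± 0.256, Ms4a6d by -0.31 ± 0.125 and Ms4a6c by -0.27 ± 0.166, and Ms4a6d alone of these did not overlap. KRM RAS replicate 1, the library with 324 CPM of T and NK cell markers, sat within the Sham range for Ms4a6b, Ms4a6c and Ms4a14. Without it Ms4a14 (-1.25 ± 0.294), Ms4a6b (-0.91 ± 0.123), Ms4a6c (-0.51 ± 0.117) and Ms4a6d (-0.41 ± 0.125) were called, but so were 50.2% of the 14088 genes tested. The RAS libraries left, replicates 2 and 3, held 142 and 118 CPM of endothelial markers against 2.79 to 9.93 CPM in KRM Sham, and 4362.1 and 5343.9 CPM of macrophage markers against 8385.4 to 10605.8 CPM. Their part in the result was not tested. Ms4a8a was under the filter on low counts and was not tested, and its ratio of pooled counts, RAS over Sham, was 3.24 with an exact 95% interval from 1.63 to 6.80 that covers counting error only.

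**Figure D5:**
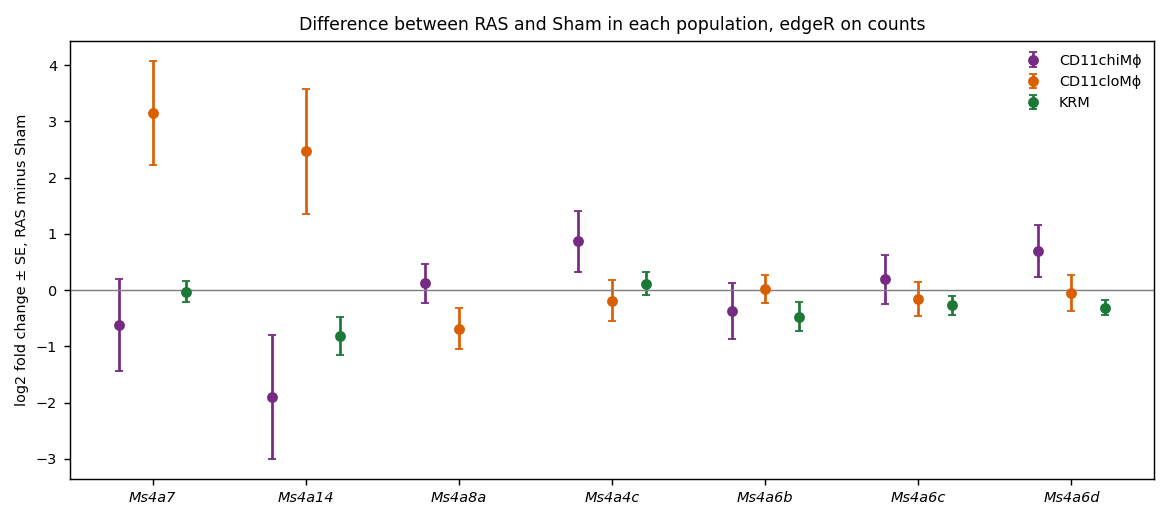
Log2 fold change (points) with its standard error (bars) of RAS minus Sham for the 7 Ms4a genes with counts, in CD11chiMϕ (purple), CD11cloMϕ (orange) and KRM (green); Ms4a8a was not tested in KRM. The largest difference, 3.15 ± 0.928 for Ms4a7 in CD11cloMϕ, has the second-widest bar of that population, and no point was called.

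The response to stenosis was also compared between populations with an interaction term. KRM minus CD11cloMϕ gave -3.21 ± 0.969 for Ms4a7 and -3.33 ± 1.19 for Ms4a14. Ms4a8a passed the filter on low counts only through CD11cloMϕ, where it is high, so no value is given for it, and the counts of members below may include it. No member was called, beside 0.245% of 13877 genes. The unadjusted p of edgeR was under 0.05 for 3 members and 3289 genes, and DESeq2 called 2 members and 1419 genes. Without KRM RAS replicate 1, edgeR called Ms4a7, and Ms4a8a with the limit just given, where 16.1% of genes were called. Without CD11cloMϕ RAS replicate 3 the Ms4a7 value was -1.84 ± 0.406, not called. The Ms4a14 value leans on the same library, which held 39.2 CPM of it where the others of that group held 0.954 to 10.6 CPM. KRM minus CD11chiMϕ and CD11chiMϕ minus CD11cloMϕ had no called member (0.0% of 14137 and 0.0% of 13540 genes), and unadjusted p was under 0.05 for 1 and 2 members, 3000 and 900 genes. DESeq2 called no member and 1221 and 15 genes in these.

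The genes whose log2 CPM followed each member most closely were sought among 8886 genes over the 21 libraries. These fall into 3 populations, and all genes of a library share its depth, so a high r mostly records a like order of the populations. Ms4a7 was closest to Hpgds, a prostaglandin D synthase (Pearson's r = 0.981), C1qa, a complement subunit (0.95), and Tmem221 (0.947), and Ms4a14 to Lilra5 (0.972), Tanc2 (0.96) and the transporter Slco2b1 (0.959). Ms4a8a was closest to the fibronectin gene Fn1 (0.989), Gda (0.978) and the heparanase gene Hpse (0.971), and Ms4a4c to Rab32 (0.98), the chemokine Ccl6 (0.979) and Aqp9 (0.976). Ms4a6c was closest to Myd88 (0.977), the adaptor of Toll-like receptors, Ptpn1 (0.965) and Stom (0.962). Ms4a6b was closest to Abcd2 (0.966), Dusp7 (0.958) and Clec4a3 (0.957), and Ms4a6d to Csf2rb2 (0.948), Ensa (0.944) and Pla2g7 (0.939). With Spearman's rank correlation 5 of the 21 nearest genes stayed the same.

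Among the members, Ms4a7 and Ms4a14 had r = 0.901 over the 21 libraries, and 0.84, 0.889 and 0.657 over the 7 libraries of CD11chiMϕ, CD11cloMϕ and KRM. Ms4a4c and Ms4a8a had r = 0.926 over all libraries and 0.893, 0.658 and 0.134 within these populations. Ms4a6b and Ms4a6c, the pair with shared promoter runs, had r = 0.769 over all, and 0.64, 0.817 and 0.952 within the populations, where shared reads may add to it.

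Of the other 10 Ms4a genes in the count table, 9 were low or at 0. Ms4a5, Ms4a12, Ms4a13 and Ms4a15 had a count of 0 in all 21 libraries, and Ms4a10 and Ms4a3 had at most 2 in any library. Ms4a1, the B cell gene, had 0 to 32 counts, Ms4a2, the mast cell gene, 0 to 25, and Ms4a4d 0 to 18. Only Ms4a4b, a T cell gene, was high enough to be tested in every comparison.

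Across all libraries Ms4a4b ranged from 1.40 to 112 CPM, with 12.9 to 30.4 CPM in CD11cloMϕ Sham and 22.7 to 77.2 CPM in CD11chiMϕ RAS. It was at 1.56, 2.12, 1.40 and 2.72 CPM in KRM Sham and at 112, 8.43 and 9.90 CPM in KRM RAS. It was lower in KRM Sham than in CD11cloMϕ Sham by a difference of -3.67 ± 0.385 (edgeR, adjusted p = 0.000173) and than in CD11chiMϕ Sham by -2.19 ± 0.314 (edgeR, adjusted p = 0.0128, and 0.0945 with the replicate block). Ms4a4b is the gene that shares most sequence with Ms4a4c, 227 of 1747 distinct 31-base words of Ms4a4c, so reads of Ms4a4c may be counted in it. T and NK cell markers summed to 4.64 to 9.62 CPM in CD11cloMϕ Sham. The RAS against Sham difference in KRM was 4.55 ± 0.956 (edgeR, adjusted p = 0.0332), and 2.31 without RAS replicate 1 (adjusted p = 0.00114). That call was lost when any 1 of the other 6 libraries was left out, with adjusted p up to 0.107. T and NK cell markers moved with it, from 2.61 to 3.73 CPM in KRM Sham to 324, 38.3 and 34.0 CPM in KRM RAS, and their part in the result was not tested.

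Tmem176a and Tmem176b, relatives of the family that lie on another chromosome, were higher in KRM than in CD11cloMϕ in Sham. Tmem176b was at 1592.6 ± 247 CPM in KRM Sham (SD, n = 4) and at 427 ± 143 CPM in CD11cloMϕ Sham (SD, n = 3), a log2 fold change of 1.89 ± 0.236 (edgeR, adjusted p = 0.000445). That of Tmem176a was 2.00 ± 0.286 (edgeR, adjusted p = 0.000883). Neither passed the threshold in the other 11 comparisons, where adjusted p was 0.104 or higher.

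Genes that have been linked with MS4A proteins were read alongside. Of 13 such genes, 12 were tested between KRM and CD11cloMϕ in Sham, and 3 were higher and 4 lower in KRM, beside 41.8% of all genes called. The Fc receptor gene Fcgr4 was higher by 3.37 ± 0.205 (edgeR, adjusted p = 1.03e-05), as were Fcgr1 (1.10 ± 0.181) and Fcgr3 (0.95 ± 0.159). Vsig4, the complement receptor linked with Ms4a6d, was at 106 ± 92.9 CPM in CD11cloMϕ Sham (SD, n = 3) and at 0.0386 ± 0.0499 CPM in KRM Sham (SD, n = 4; edgeR, adjusted p = 4.68e-05), where it was near 0 counts, so that no fold is given, and the differences of Syk, a kinase gene, Tyrobp and Nlrp3 were -0.69, -0.64 and -0.94. The Tyrobp call was lost when any 1 of 5 libraries was left out (adjusted p up to 0.139). In 1 fit over all groups the edgeR calls of Fcgr1, Syk, Tyrobp and Nlrp3 were lost (adjusted p = 0.142, 0.131, 0.144 and 0.231), and that of Syk also with limma on the log2 table (adjusted p = 0.148). Clec7a, which encodes the dectin-1 that associates with Ms4a4a, did not pass the threshold in any comparison, nor did Fcer1g and Fcer1a, which encode subunits of the IgE receptor, where they were tested.

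In the other population comparisons, fewer linked genes were called. In Sham, Vsig4 and Kit were lower in KRM than in CD11chiMϕ (edgeR, adjusted p = 0.00962 and 0.0181), and Kit higher in CD11chiMϕ than in CD11cloMϕ (adjusted p = 0.0479 by edgeR). In RAS, Kit was again higher in CD11chiMϕ than in CD11cloMϕ (edgeR, adjusted p = 0.0305), Syk lower in KRM than in CD11chiMϕ (adjusted p = 0.048), and Card9, Syk and Tyrobp lower in KRM than in CD11cloMϕ (-1.58, -1.57 and -1.38). Fcgr1, Fcgr3, Fcgr4 and Vsig4 did not pass the threshold in that last comparison, where the difference in Fcgr3 was -0.47 ± 0.241. Of these calls, only that of Vsig4 held in every fit that left out 1 library.

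Between RAS and Sham in KRM, 5 of 11 tested linked genes passed the threshold, beside 9.77% of all genes. Trem2, a lipid receptor of macrophages, rose by 1.15 ± 0.151, from 28.9 ± 4.77 (SD, n = 4) to 60.4 ± 5.82 CPM (SD, n = 3), at adjusted p = 0.0151 by edgeR. Kit was higher in RAS, at 51.6 ± 41.4 CPM (SD, n = 3). In KRM Sham it was near the floor, at 0.789 ± 0.524 CPM (SD, n = 4), so that no fold is given. Card9, Fcgr3 and Fcgr4 were lower, with differences of -1.23 ± 0.295, -0.85 ± 0.172 and -0.96 ± 0.201. The Trem2 call was lost, at adjusted p up to 0.0612, without KRM Sham replicate 2 or 4 or KRM RAS replicate 2 or 3, and the other 4 were each lost without at least 5 of the 7 libraries in turn. In 1 edgeR fit over all groups the calls of Trem2, Fcgr3 and Fcgr4 were lost (adjusted p = 0.249, 0.0634 and 0.31). Of 5 mast cell and basophil markers, Cpa3, Tpsb2 and Cma1 were at 14.4, 20.9 and 22.7 CPM in KRM RAS replicate 1 and at most at 2.54 CPM in any other KRM library. Gata2, which other cells also express, was at 48.1 and 34.7 CPM in replicates 2 and 3 and at 6.78 CPM or less in the other KRM libraries. The 5 endothelial markers summed to 142 and 118 CPM in those same replicates and to 2.79 to 9.93 CPM in KRM Sham. The part of these cell types in the linked genes' changes was not tested.

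The protein-coding genes in and beside the cluster were read for comparison. Of 13 neighbours, 10 were in the count table and 5 were tested between KRM and CD11cloMϕ in Sham. Tmem109 was higher in KRM by 0.89 (edgeR, adjusted p = 0.00432) and Ccdc86 lower by a difference of -1.18 (edgeR, adjusted p = 0.000709), with 41.8% of all genes called. Ccdc86 was also lower in KRM than in CD11chiMϕ in RAS (-0.95; edgeR, adjusted p = 0.0496), and Tmem109 lower in RAS than in Sham in KRM (-0.69; edgeR, adjusted p = 0.029), and each call was lost when any 1 of 5 libraries was left out. No neighbour was called in the other comparisons run. Gm8369, which lies inside the cluster between Ms4a6c and Ms4a6b, was at 1.28 CPM in KRM Sham and 0.806 CPM in CD11cloMϕ Sham (edgeR, adjusted p = 0.328).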

How the data were processed

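RNA was measured by SMART-Seq v4 sequencing of sorted cells, aligned by the authors with OSA to mm10 with Ensembl genes. The authors deposited estimated counts per gene, partly not whole numbers (tolerance 0.01), and a second table of log2(TPM + 1) values that they quantile normalized. Counts were rounded, lines with 1 name were summed (37620 lines, 34236 names), and genes were kept with filterByExpr (minimum count 10, minimum total 15). CPM used TMM factors. Comparisons were fitted in R 4.3.3 with edgeR 4.0.16 (glmQLFit, glmQLFTest; Benjamini-Hochberg over all genes), with the groups compared only. DESeq2 1.42.0, limma 3.58.1 on the log2 values, other scalings, no filter, 1 fit over all groups, the replicate block and leaving out each library were alternatives. The edgeR fitting was checked on simulated data, which has no bearing on the calls given here. Labels do not say whether libraries were separate animals, so p-values measure the spread between libraries.

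The 8 members and the gene lists were chosen with earlier results of these data known. The genes read by name were all members, every other Ms4a gene, Tmem176a and Tmem176b, genes linked with MS4A proteins, cluster neighbours (named where called, or tested and inside the cluster) and, per member, the 3 genes of highest r. Replicate numbers paired the samples in Sham: same-numbered libraries of 2 populations deviated together with r of at least 0.201, 0.208 and 0.349 in the 3 Sham comparisons. In RAS, and between RAS and Sham, the lowest r was 0.076 or less. The log2 column of KRM RAS replicate 1 had r = 0.09 with its counts (others 0.915 or higher) and was left out. No sequence of the proteins was used here.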

Additional observations from a re-analysis of the deposited data

Results flagged for a closer look

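Among 24 sets of 4 libraries, 1 per member and group, 2 held a library far from the others by Dixon's 95% criterion, which chance alone passes in about 1 set in 20. Ms4a7 was at 496 CPM in CD11cloMϕ RAS replicate 3, with 36.0 to 95.8 CPM in the other libraries of that group (a gap of 0.87 of the group's range). Ms4a14 was at 17.6 CPM in CD11chiMϕ RAS replicate 1, with 0.473 to 2.22 CPM in the others (a gap of 0.898 of the range).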

How the results depend on the processing

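Of 594 log2 fold changes of single members under another scaling, filter, fit or tool, 568 moved by less than the spread between libraries (1 SD), 26 moved by more and 0 of a called member changed sign. Leaving out 1 library moved 13 of 728 by more, and 0 of a called member changed sign. Sign changes of members not called in the main fit were not counted. Scaling to the total count changed group mean levels by factors of 0.904 to 1.14, and 41 of 42 moved by less than 1 SD. Counts of called members moved by more than 1.5 times as follows. With the replicate block, 1 of 7 was called for KRM against CD11chiMϕ in Sham (main count 3) and 1 in RAS (main count 2). The block changed the count of no other comparison by that much. With DESeq2, 5 were called for KRM against CD11chiMϕ in RAS, 4 for CD11chiMϕ against CD11cloMϕ in RAS (main count 2) and 2 for the response of KRM minus CD11cloMϕ (main count 0; Ms4a8a was too low in KRM to be read there). With total counts, and with no filter, 1 was called for CD11chiMϕ against CD11cloMϕ in Sham (main count 3). With limma on the log2 table, 1 was called for KRM against CD11chiMϕ in RAS, 3 for KRM against CD11cloMϕ in RAS (main count 5) and 1 for RAS against Sham in KRM (main count 0), the last being 4 without KRM RAS replicate 1, a choice made after seeing the data. The cause was not tested. Shares of all genes called are not given for total counts, no filter, limma and most fits without 1 library. There, a change in the count of members cannot be told apart from a general change in calls.

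Leaving out 1 library gave 1 to 5 called members for KRM against CD11chiMϕ in Sham, 6 to 7 for KRM against CD11cloMϕ and 0 to 3 for CD11chiMϕ against CD11cloMϕ. In RAS it gave 0 to 4, 0 to 5 and 0 to 3. It gave 0 to 4 for RAS against Sham in KRM, 0 to 2 for the response of KRM minus CD11cloMϕ, and 0 throughout for the remaining 4 comparisons. Of all genes, the replicate block called 89 for KRM against CD11chiMϕ in Sham (635 without it), 595 for CD11chiMϕ against CD11cloMϕ in Sham (184 without it), 101 for KRM against CD11chiMϕ in RAS (1221 without it) and 39 for RAS against Sham in KRM (1256 without it). DESeq2 called 1811, 1213, 2753 and 3166 in these. It called 2054 for CD11chiMϕ against CD11cloMϕ in RAS (1018 by edgeR) and 1419 for the response of KRM minus CD11cloMϕ (34 by edgeR). In RAS, and between RAS and Sham, a pairing of same-numbered samples was not shown. Between populations in RAS, r of same-numbered libraries ran from 0.053 to 0.505.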
